A study of Mus musculus with 9 samples.

Results

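The 10 genes described here encode the kinases, adaptors and upstream scaffolds of the mouse Hippo pathway: Stk3, Stk4, Lats1, Lats2, Sav1, Mob1b, Nf2, Wwc1, Wwc2 and Limd1. They were taken by symbol from a table of 18504 genes, and all 10 were found. The table holds RNA levels of 9 libraries of the J1 line, embryonic stem cells from a 129S4/SvJae mouse, at passage 5 to 7. In undifferentiated cells there was 1 library with Yap1 overexpression (Yap1_OE) and its control (BirA), 2 libraries labelled as Yap1 knockouts (Yap1_KO1 and Yap1_KO2) and their control (ESC), and 1 library with Yap1 knockdown (Yap1_KD1) and its control (Control). In differentiated cells there was 1 library with knockdown (dESC_Yap1_KD1) and its control (dESC_control). The route and length of differentiation, the knockdown agent, the edited site and whether the knockout libraries are separate clones are not stated in the labels. Every group but one is a single library, so most differences are given without a p-value.

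In the Hippo pathway Stk3 and Stk4 (also called Mst2 and Mst1) phosphorylate and activate the kinases Lats1 and Lats2, with Sav1 and the Mob1 proteins as adaptors. Lats kinases then phosphorylate the coactivator Yap1, which is held in the cytoplasm and kept from the TEAD transcription factors. Nf2 (merlin) and the WW-domain scaffolds Wwc1 (Kibra) and Wwc2 bring Lats to the membrane and promote its activation, while the LIM protein Limd1 binds Lats and restrains it. Lats2 and Nf2 are known in mammalian cells as genes that YAP and TEAD can induce, a negative feedback.

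Wwc2 was lower in every library labelled for a loss of Yap1 than in its control and higher in the overexpression library. It was at 16.2% to 46.1% of its control in the 4 libraries with a knockout or knockdown label, and at 1.62 times its control in the overexpression library. The far scarcer Lats2 was as far or further from its control by FPKM ratio in 3 of these 5 comparisons, but not in the knockout-labelled libraries. Lats2 was 9.33 times higher in differentiated control cells than in undifferentiated control cells, and under knockdown it was at 20.3% of the differentiated control. Limd1, Wwc1 and Wwc2 were also higher after differentiation. Stk4, Sav1, Nf2 and Lats1 stayed within a 1.92-fold range over the 9 libraries. No member passed a test of Yap1 loss, but Yap1 itself passed none of them either. These tests therefore cannot show that a member was unchanged.

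The libraries had estimated depths of 9.21 to 22.4 M fragments, the lowest in Yap1_KO1. Levels are FPKM, fragments per kilobase of transcript scaled to the depth of the library, and can be compared between genes because they are per length. Yap1 RNA was at 139 FPKM in Yap1_OE against 46.7 in BirA, at 4.55 in Yap1_KD1 against 37.4 in Control, and at 12.5 in dESC_Yap1_KD1 against 78.0 in dESC_control. The libraries labelled Yap1_KO1 and Yap1_KO2 kept Yap1 RNA, at 57.3 and 27.6 FPKM against 65.4 in ESC, so directions drawn from them are those of libraries with that label. All 5 pluripotency markers examined (Pou5f1, Nanog, Sox2, Esrrb and Zfp42) were detected in every library, with summed levels of 1580 and 1162 FPKM in dESC_Yap1_KD1 and dESC_control and 1910 to 2487 FPKM in the undifferentiated ones. In such bulk RNA fewer cells of a type and less RNA per cell cannot be told apart. The 5 markers of feeder fibroblasts (Col1a1, Col1a2, Col3a1, Postn and Thy1) summed to 6.51 to 39.7 FPKM, most of it Thy1 except in dESC_control. Thy1, a surface protein also found on other cells, had 39.2 and 32 FPKM in Yap1_KO1 and Yap1_KO2 against 18.7 in ESC, 4.64 in Yap1_OE against 19.3 in BirA, and 8.21 in dESC_Yap1_KD1 against 3.4 in dESC_control. The collagen Col1a1 was highest in dESC_control, at 5.73 FPKM, while Col3a1 and Postn reached at most 0.281 and 0.0499 FPKM. The part of these markers in the members' values was not tested.

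**Figure D1:**
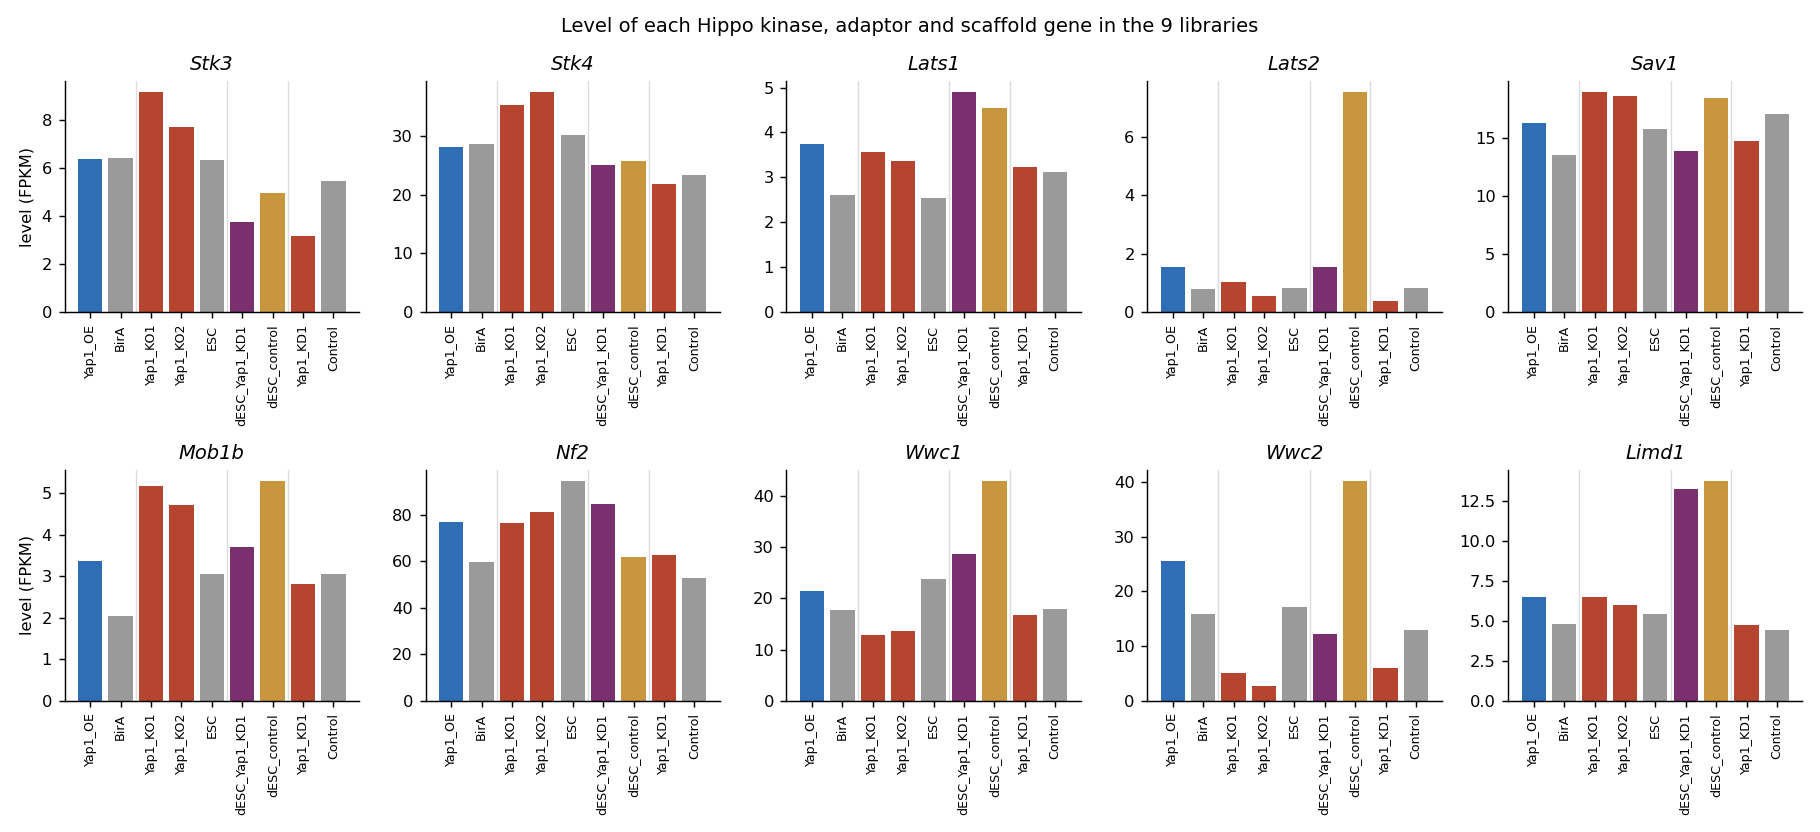
Level of each of the 10 genes in FPKM (bars, 1 library each, linear axis from 0, own scale per gene) in the 9 libraries, grouped by grey lines into overexpression, knockout-labelled, differentiated and undifferentiated knockdown sets. The Wwc2 bars of Yap1_KO1, Yap1_KO2 and Yap1_KD1 are the lowest of that gene, and the Lats2 bar of dESC_control, at 7.54 FPKM, stands far above its other libraries.

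Levels of the members spread over a wide range. Nf2 was the most abundant in all 9 libraries, at 52.8 to 94.8 FPKM. In ESC the order below it was Stk4, Wwc1, Wwc2, Sav1, Stk3, Limd1, Mob1b, Lats1 and Lats2, and it differed in other libraries. Over the 9 libraries Stk4 had 21.8 to 37.5 FPKM, Sav1 13.6 to 19.0, Wwc1 12.8 to 43.0 and Wwc2 2.77 to 40.2. In dESC_control both Wwc1 and Wwc2 were above Stk4, and in Yap1_KO2 Wwc2 was below every member but Lats2. Limd1 had 4.46 to 13.8 FPKM, Stk3 3.15 to 9.17, Mob1b 2.04 to 5.30 and Lats1 2.55 to 4.90. Lats2 was the scarcest in 8 of the 9 libraries, at 0.365 to 1.54 FPKM, and reached 7.54 FPKM in dESC_control. In undifferentiated control cells the main kinase RNAs of each pair were thus Stk4, at 4.27 to 4.77 times Stk3, and Lats1, at 3.07 to 3.87 times Lats2. The 3 undifferentiated controls are labelled for no change of Yap1. They were within 1.06-fold of each other for Lats2 but 1.80-fold apart for Nf2, which sets the scale for single-library differences. In Yap1 RNA itself these controls were 1.75-fold apart, from 37.4 to 65.4 FPKM.

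Of the Mst kinases, Stk4 varied over a 1.72-fold range and Stk3 over a 2.91-fold range. Stk4 had 35.3 and 37.5 FPKM in Yap1_KO1 and Yap1_KO2, against 30.2 in ESC. It had 28.1 FPKM in Yap1_OE against 28.6 in BirA, 21.8 in Yap1_KD1 against 23.3 in Control, and 25 in dESC_Yap1_KD1 against 25.7 in dESC_control. Both knockout-labelled libraries were above all other libraries, at 1.17 and 1.24 times ESC. These and the other pairs all differed by less than the 1.29-fold range of the undifferentiated controls. Stk3 had 9.17 and 7.72 FPKM in Yap1_KO1 and Yap1_KO2, against 6.33 in ESC. In the knockdown it went the other way, with 3.15 FPKM in Yap1_KD1 against 5.47 in Control and 3.77 in dESC_Yap1_KD1 against 4.96 in dESC_control. Overexpression left it at 6.37 FPKM against 6.44 in BirA. Removing the trend with GC content (described below) put the Stk3 log2 change of the knockout-labelled pair at -0.04 in place of 0.36. The difference between the effects in the knockout-labelled and knockdown arms, 1.0 on the log2 scale with a standard error of 0.25, did not pass (limma, Benjamini-Hochberg adjusted p = 0.345), in a test that 0 of 10 members and 0.272% of all genes passed, and this comparison was chosen after the values were seen.

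Lats1 had 4.90 and 4.54 FPKM in dESC_Yap1_KD1 and dESC_control, its 2 highest values, against 3.24 in Yap1_KD1 and 3.13 in Control. It had 3.75 FPKM in Yap1_OE against 2.61 in BirA, and 3.57 and 3.37 in Yap1_KO1 and Yap1_KO2 against 2.55 in ESC. It was thus above its control in the library with more Yap1 RNA as well as in those labelled as knockouts. With the trend with GC content (described below) removed, the log2 change of the knockout-labelled pair was 0.08 in place of 0.33. Lats2 behaved differently from its paralog. It had 1.53 FPKM in dESC_Yap1_KD1 against 7.54 in dESC_control, 0.365 in Yap1_KD1 against 0.808 in Control, and 1.54 in Yap1_OE against 0.785 in BirA. In these 3 pairs the library with less Yap1 RNA had less Lats2 RNA. In Yap1_KO1 and Yap1_KO2 it had 1.02 and 0.566 FPKM against 0.830 in ESC, 1 library above and 1 below the control. At these depths the undifferentiated values stand for about 34 to 175 fragments of a 5191 nt transcript, fewest in Yap1_KD1, against about 755 in dESC_control.

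The order of Lats2 levels was dESC_control, Yap1_OE, dESC_Yap1_KD1, Yap1_KO1, then ESC, Control and BirA, then Yap1_KO2 and Yap1_KD1. Yap1_OE and dESC_Yap1_KD1 were next to each other at 1.54 and 1.53 FPKM, and the 3 controls at 0.830, 0.808 and 0.785. The knockout-labelled pair, the only libraries of 1 group, were 1.80-fold apart, and no neighbours below dESC_control in this order differ beyond that spread. The pair was also 2.07-fold apart in Yap1 RNA, so this is not a spread of libraries with equal Yap1 RNA. Lats2 made up 62.4% of the summed Lats1 and Lats2 FPKM in dESC_control, against 20.5% in Control. Under knockdown it made up 23.8% in dESC_Yap1_KD1 and 10.1% in Yap1_KD1. By these values Lats2 was the more abundant Lats RNA in dESC_control, and Lats1 was in the other 8 libraries. Of the 50-base stretches of Lats2, 56.5% are also in Gm49361, an overlapping annotated gene. The Lats2 values may be too low if the annotation behind the levels, which is not stated, also held that gene.

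**Figure D2:**
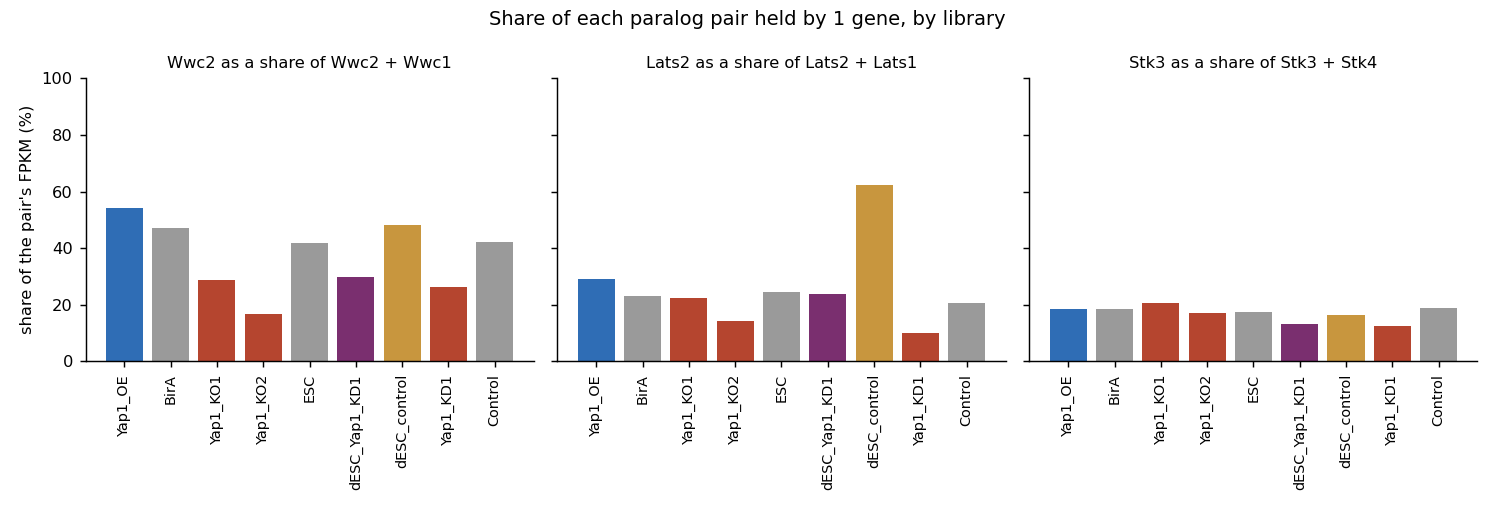
Share of the summed FPKM of a paralog pair (percent, bars from 0, 1 library each) held by Wwc2 of Wwc1 and Wwc2, Lats2 of Lats1 and Lats2, and Stk3 of Stk3 and Stk4. Lats2 reaches 62.4% in dESC_control and Wwc2 is lowest at 16.8% in Yap1_KO2, while Stk3 stays between 12.6% and 20.6%.

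Of the adaptors, Sav1, which links Mst to Lats kinases, had 19.0 and 18.7 FPKM in Yap1_KO1 and Yap1_KO2 against 15.8 in ESC, and 16.3 in Yap1_OE against 13.6 in BirA. It had 14.8 FPKM in Yap1_KD1 against 17.1 in Control and 13.9 in dESC_Yap1_KD1 against 18.5 in dESC_control. All these values lie within a 1.40-fold range. Part of the Sav1 transcript (52.0% of its 50-base stretches) is also in the annotated transcripts of Atl1 on the opposite strand. Atl1 was at 0.409 to 1.47 FPKM, and without strand its reads cannot be told from those of Sav1 there. Mob1b, a coactivator subunit of Lats, had 5.18 and 4.71 FPKM in Yap1_KO1 and Yap1_KO2 against 3.06 in ESC, 3.37 in Yap1_OE against 2.04 in BirA, and 3.70 in dESC_Yap1_KD1 against 5.30 in dESC_control. In undifferentiated knockdown cells it differed little, at 2.82 FPKM against 3.05. Its paralog Mob1a was 2.51 to 5.87 times as abundant in all 9 libraries and had a narrower range, 11.9 to 16.9 FPKM.

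Among the scaffolds Nf2 had 76.9 FPKM in Yap1_OE against 59.8 in BirA, and 63.0 in Yap1_KD1 against 52.8 in Control. It had 84.7 in dESC_Yap1_KD1 against 62.1 in dESC_control, but 76.4 and 81.3 in Yap1_KO1 and Yap1_KO2 against 94.8 in ESC. The 2 knockdown libraries were above their controls and the knockout-labelled ones below theirs. ESC had the highest Nf2 level of all 9 libraries, and with BirA and Control added as controls the log2 change of the knockout-labelled pair was 0.23 in place of -0.26. No Nf2 direction with Yap1 can be given from these libraries. Limd1 had 13.3 and 13.8 FPKM in dESC_Yap1_KD1 and dESC_control, against 4.73 in Yap1_KD1 and 4.46 in Control. In the other undifferentiated libraries it lay between 4.82 and 6.52 FPKM, so the differentiated libraries stood apart from all 7 others.

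Wwc1 had 12.8 and 13.7 FPKM in Yap1_KO1 and Yap1_KO2, against 23.7 in ESC, which is 54.0% and 57.7% of that control. These were the lowest Wwc1 values of the 9 libraries and lay below the undifferentiated controls, which had 17.8 to 23.7 FPKM. In the knockdown it had 28.7 FPKM in dESC_Yap1_KD1 against 43.0 in dESC_control, but 16.8 in Yap1_KD1 against 18.0 in Control. In Yap1_OE it had 21.5 FPKM against 17.8 in BirA. Wwc2 had 5.15 and 2.77 FPKM in Yap1_KO1 and Yap1_KO2 against 17.1 in ESC, 5.99 in Yap1_KD1 against 13 in Control, 12.2 in dESC_Yap1_KD1 against 40.2 in dESC_control, and 25.6 in Yap1_OE against 15.8 in BirA. All 3 undifferentiated libraries labelled for a loss of Yap1 lay below every undifferentiated control (13 to 17.1 FPKM), and Yap1_OE lay above every one. The knockout-labelled pair was 1.86-fold apart, less than the 3.32-fold distance of the nearer of them to ESC. The nearer of these, Yap1_KO1, had 87.6% of the Yap1 RNA of ESC but 30.1% of its Wwc2 RNA.

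The order of Wwc2 levels was dESC_control, Yap1_OE, ESC, BirA, Control, dESC_Yap1_KD1, Yap1_KD1, Yap1_KO1 and Yap1_KO2. Apart from dESC_Yap1_KD1 and Yap1_KD1, which were 2.04-fold apart, no neighbours in this order differ beyond the spread of the knockout-labelled pair. That pair was 2.07-fold apart in Yap1 RNA itself. As a share of the summed Wwc1 and Wwc2 FPKM, Wwc2 made up 28.6% and 16.8% in Yap1_KO1 and Yap1_KO2 against 41.9% in ESC, 26.3% in Yap1_KD1 against 42.0% in Control, and 29.9% in dESC_Yap1_KD1 against 48.3% in dESC_control. The summed level in dESC_Yap1_KD1, 40.9 FPKM, was close to that of ESC, 40.8 FPKM, with a different make-up. About 11% of the 50-base stretches of the Wwc2 transcript are shared with Cldn22 on the opposite strand, a claudin gene listed at 0 in 8 libraries and at 0.309 FPKM in dESC_control.

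**Figure D3:**
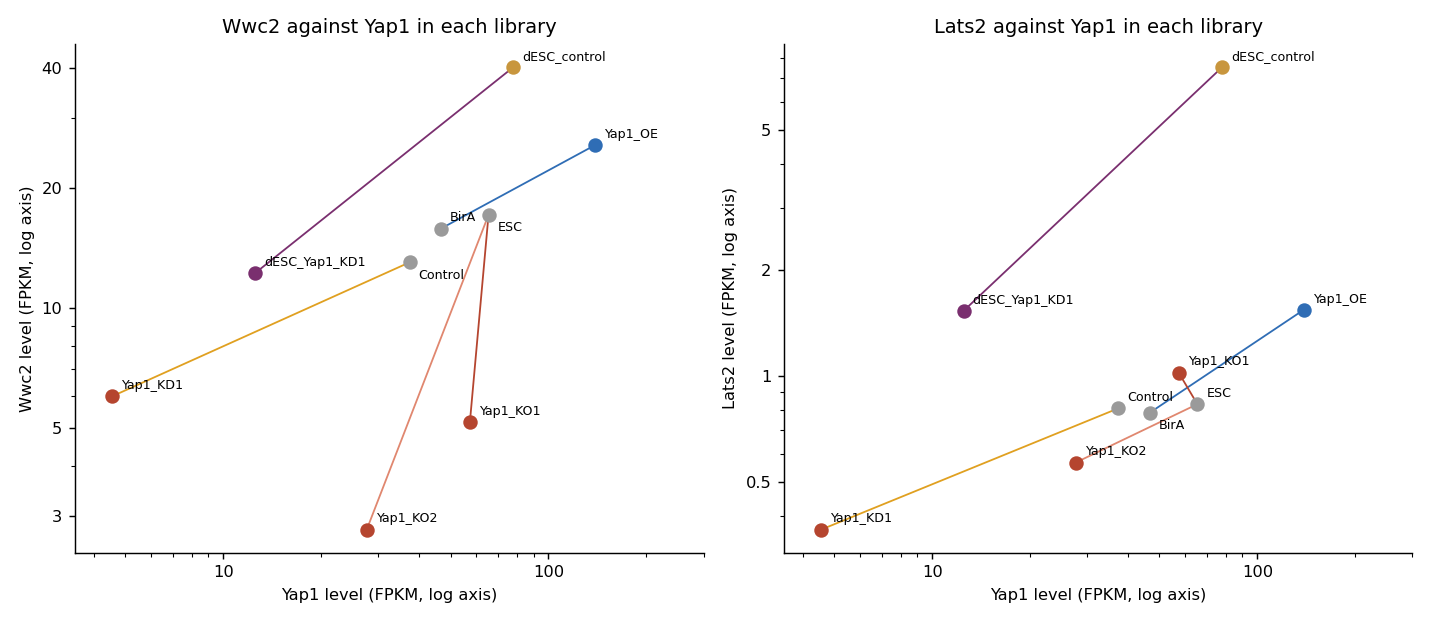
Level of Wwc2 (left) and Lats2 (right) against the level of Yap1, both in FPKM on log axes, 1 point a library, with a line from each library of altered Yap1 to its own control. All 5 Wwc2 lines run upward to the right, that of Yap1_KO1 almost vertically, while the Lats2 line of Yap1_KO1 runs the other way and dESC_control stands above the rest in both panels.

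The start site regions of Wwc2, its paralog Wwc1 and Lats2 are shown because their RNAs differed with Yap1 or with differentiation. They were searched for GGAATG and its reverse complement CATTCC, the core of the motif that TEAD factors bind. The sequences are RefSeq start sites on GRCm38.p6, all on the minus strand, from 250 bases before to 30 bases after the start, with each match in capitals. They are chr8:47990515-47990794 for Wwc2, chr11:35980498-35980777 for Wwc1 and chr14:57746094-57746373 for the first of 2 annotated Lats2 start sites.
Wwc2: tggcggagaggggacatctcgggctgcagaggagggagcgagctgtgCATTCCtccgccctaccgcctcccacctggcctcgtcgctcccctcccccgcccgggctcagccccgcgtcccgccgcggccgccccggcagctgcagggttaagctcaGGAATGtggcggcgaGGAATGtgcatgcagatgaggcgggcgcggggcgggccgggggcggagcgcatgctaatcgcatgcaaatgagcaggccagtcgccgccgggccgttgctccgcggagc
Wwc1: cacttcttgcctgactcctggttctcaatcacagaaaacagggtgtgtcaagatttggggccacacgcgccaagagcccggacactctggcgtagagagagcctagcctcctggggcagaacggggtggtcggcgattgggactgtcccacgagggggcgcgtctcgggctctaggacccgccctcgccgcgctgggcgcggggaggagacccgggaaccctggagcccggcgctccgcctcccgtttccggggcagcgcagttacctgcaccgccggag
Lats2: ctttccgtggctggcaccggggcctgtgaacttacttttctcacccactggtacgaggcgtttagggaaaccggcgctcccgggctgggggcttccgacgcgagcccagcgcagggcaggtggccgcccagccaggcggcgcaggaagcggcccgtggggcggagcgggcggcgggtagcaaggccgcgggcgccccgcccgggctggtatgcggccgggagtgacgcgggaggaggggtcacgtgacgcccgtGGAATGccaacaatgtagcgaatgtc

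The Wwc2 window holds 3 matches, which begin 203, 94 and 79 bases before the start site. In the Wwc1 window there is no match, and in that of Lats2 there is 1, which begins 4 bases after the start site. Windows were at hand for 8 members (all but Stk3 and Limd1), and matches were found in those of Wwc2, Lats2 and Sav1. Of 32851 start site windows of 300 bases, 14.7% hold at least 1 match, 1.36% at least 2 and 0.131% (43 windows) at least 3, both strands counted. The motif was searched after the Wwc2 values were known. No second motif was searched, and a match says only that these letters are present.

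Tests of Yap1 loss used limma on log2(FPKM + 1) over all genes at 1 FPKM or more in a library compared, with Benjamini-Hochberg adjustment and a threshold of 0.05. For the knockout-labelled pair against ESC, 0 of the 10 members passed. Without adjustment 3 of them (Wwc1, Wwc2 and Mob1b) had p under 0.05, in a fit where 0.173% of all genes passed and 23.1% had such an unadjusted p. Wwc2 had a log2 change of -1.91 with a standard error of 0.33 and Wwc1 one of -0.80 with a standard error of 0.12, both at an adjusted p of 0.150 by limma. Over the alternatives the adjusted p ran from 0.0572 to 0.285 for Wwc2 and from 0.0610 to 0.281 for Wwc1. With the knockdown arm added, 0 members passed by limma, 2 (Wwc1 and Wwc2) had an unadjusted p under 0.05, and 0.0165% of all genes passed against 6.75% at that unadjusted p. Here Wwc2 had -1.52 with a standard error of 0.29 and an adjusted p of 0.455 by limma, 0.118 to 0.733 over the alternatives. Its direction was the same in 3 of 3 libraries. Yap1 itself passed in neither fit, at log2 changes of -0.70 for the pair and -1.60 with both arms. A member that did not pass can thus not be called unchanged.

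By size in single libraries, at least 2-fold on the log2(FPKM + 1) scale, Wwc2 was the only member apart from its control in Yap1_KO1 (1.69% of all genes were that far below), in Yap1_KO2 (1.7%) and in Yap1_KD1 (0.506%), where its ratio lay at the threshold. In dESC_Yap1_KD1 Lats2 and Wwc2 were at least 2-fold below dESC_control, as 4.77% of all genes were. In Yap1_OE 0 of 10 members were that far from BirA, where 3.95% of all genes were. Their median log2 ratio there was 0.36, with 8 of 10 above 0, beside 0.02 for all genes. The member median was also above 0 in Yap1_KO1 (0.22, 7 of 10 above 0) and Yap1_KO2 (0.23, 6 of 9) over ESC. It was below 0 in Yap1_KD1 (-0.10, 3 of 9) and dESC_Yap1_KD1 (-0.36, 2 of 10) over their controls. BirA over ESC, 2 controls, had -0.15, with 2 of 9 above 0. Yap1_OE had a summed level of the 6 differentiation markers of 260 FPKM against 29.2 in BirA, with 5 of 6 higher. Almost all of that rise lay in Krt8 (63.4 against 7.32), Krt18 (130 against 17.5) and Tagln (66.3 against 4.01). Mixl1 (0.698 against 0.247) and Gata6 (0.243 against 0.107) were higher but under 1 FPKM, and T was lower (0.0465 against 0.105). The 5 pluripotency markers summed to 1910 FPKM against 2401, with all 5 lower. The part of these markers in the Yap1_OE values of the members, Wwc2 included, was not tested. Lats2 was under 1 FPKM in both libraries of the undifferentiated knockdown pair and in Yap1_KO2 and ESC, so only 9 members entered those counts.

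**Figure D4:**
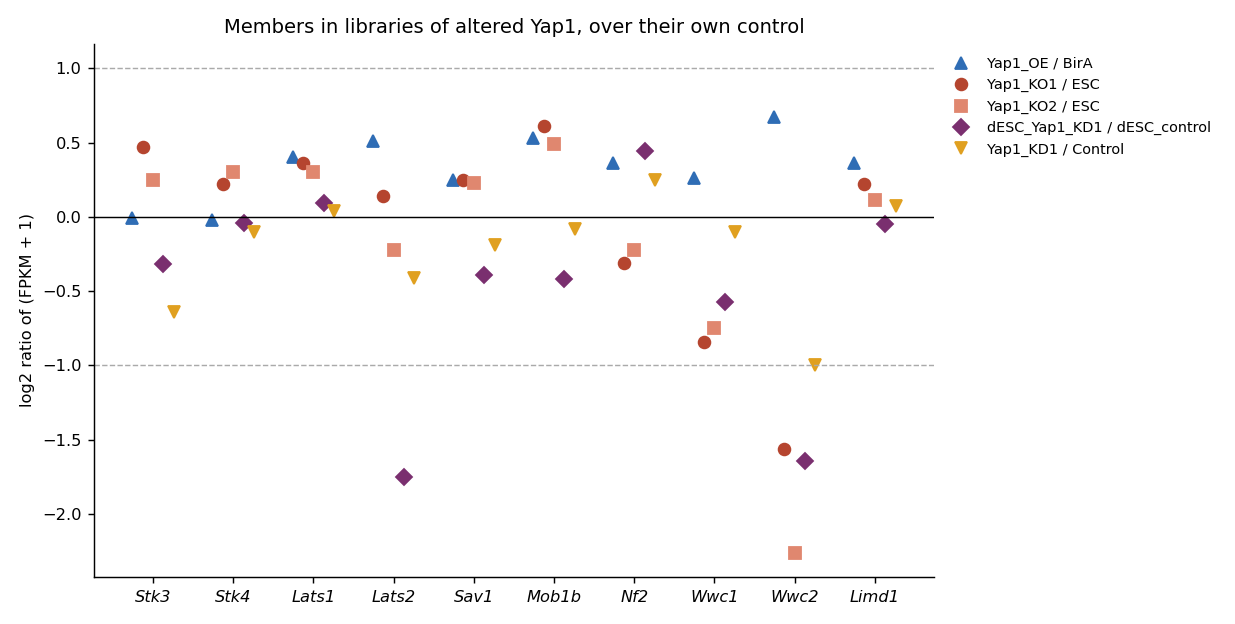
Log2 ratio of FPKM + 1 of each member in the 5 libraries of altered Yap1 over their own control (symbols, 1 comparison each), with dashed lines at 2-fold. Wwc2 lies at or below the lower line in 4 comparisons, from -1.0 to -2.26, Lats2 in 1, and the other members lie between the lines.

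In the knockout-labelled libraries the ratios moved with base composition. Genes whose longest transcript has a GC content under 45% had a median log2 change of 0.30 (2655 genes), and those at 50% or more had -0.15 (5583 genes). Stk3 (38.4% GC), Mob1b (37.9%), Sav1 (40%) and Lats1 (43.0%) are in the first class and were above ESC in both libraries. With the GC trend removed their log2 changes were -0.04, 0.13, -0.12 and 0.08. Wwc2 (50% GC) was at -1.91 with or without the trend, and Wwc1 (57.1%) was at -0.59 without it.

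Differentiation was tested in 1 fit over the 4 knockdown-arm libraries, with knockdown as a term and 1 residual degree of freedom. That degree of freedom is the interaction of differentiation and knockdown, so an unequal response to knockdown in the 2 states counts as error. Of the 10 members 4 rose and 0 fell, beside 20.3% of all genes that rose and 38.9% that passed in either direction, so the share of members that passed in either direction is near the background. Limd1 rose by 1.38 on the log2 scale (standard error 0.14, adjusted p = 0.0148 by limma). Wwc2 rose by 1.24 (0.20, adjusted p = 0.0234) and Wwc1 by 0.98 (0.16, adjusted p = 0.0238), both by limma. These 3 passed under all 7 alternatives. Lats2 rose by 1.56 (0.39) with an adjusted p of 0.0479 by limma, and passed under 3 of 7, with adjusted p from 0.0232 to 0.0955. Each of the 4 was higher in 2 of 2 differentiated libraries than in the undifferentiated library of the same knockdown state. In single comparisons at least 2-fold apart on the log2(FPKM + 1) scale, 4 of 10 members were higher in dESC_control than in Control, as 13.1% of all genes were. On that scale 1 (Limd1) was higher in dESC_Yap1_KD1 than in Yap1_KD1, as 10.3% were. Lats2 and Wwc2 were below the threshold there (0.89 and 0.92), but by FPKM ratio they were at 4.19 and 2.04 times Yap1_KD1. Lats2 had only 0.365 FPKM in Yap1_KD1. For Stk3, Stk4, Lats1, Sav1, Mob1b and Nf2 the changes were 0.01 to 0.47 and did not pass.

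The knockdown term of that fit called 0 of 10 members by limma, with 2 (Wwc2 and Nf2) at an unadjusted p under 0.05, beside 0.0314% of all genes called and 6.34% at that unadjusted p. Wwc2 had -1.32 (0.20) and Lats2 -1.08 (0.39), with an adjusted p of 0.695 each by limma. Yap1 itself did not pass for this term either, at -2.67. On the log2(FPKM + 1) scale the Lats2 ratio was -1.75 in differentiated and -0.41 in undifferentiated cells. The added 1 shrinks the second ratio, as both of its values were under 1 FPKM. By FPKM ratio Lats2 was at 20.3% and 45.1% of its control, the latter from about 34 fragments in Yap1_KD1 and 94 in Control. The difference between the 2 states was not tested. The lower Lats2 and Wwc2 levels in dESC_Yap1_KD1 came with lower markers of differentiated cells. All 6 of those examined (T, Mixl1, Krt8, Krt18, Gata6 and Tagln) were lower, with a summed level of 346 FPKM in dESC_Yap1_KD1 against 2283 in dESC_control. All 5 pluripotency markers were higher, at 1580 against 1162 FPKM. The part of these markers in the Lats2 and Wwc2 values was not tested. In the same libraries Limd1 was at 96.4% of its control and Wwc1 at 66.7%. In the undifferentiated knockdown the differentiation markers summed to 19.4 FPKM in Yap1_KD1 and 27.6 in Control, with 4 of 6 lower. Wwc2 was there at 46.1% of its control, and the part of the markers in that value was not tested either.

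The other genes of the pathway were taken as 89 symbols in 8 roles, of which 87 were in the table and 77 entered the differentiation fit. By limma 34 rose and 6 fell, where 20.3% of all genes rose and 38.9% passed in either direction. The median log2 change was 0.50 beside 0.02 for all genes. Angiomotins and their partners, which hold Yap1 at junctions, had the highest median, 2.50, and 4 of 5 rose. Amotl2 had 51.7 and 179 FPKM in dESC_Yap1_KD1 and dESC_control against 3.12 and 7.78 in Yap1_KD1 and Control. Of the adaptors 4 of 9 rose, among them Ajuba, a LIM protein that restrains Lats as Limd1 does (log2 change 2.53). Of 13 polarity and junction genes 8 rose and 0 fell, and of 8 coactivators and TEAD factors 5 rose, with Tead3 at 2.92. The other kinases, grouped as acting on Lats or Mst or as relatives of Lats, were mixed (6 rose and 3 fell of 19). So was the STRIPAK phosphatase complex, which inactivates Mst (3 rose and 3 fell of 13). Among the kinases that fell were Stk38, a relative of Lats (-0.90), and Map4k1 (-0.98).

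**Figure D5:**
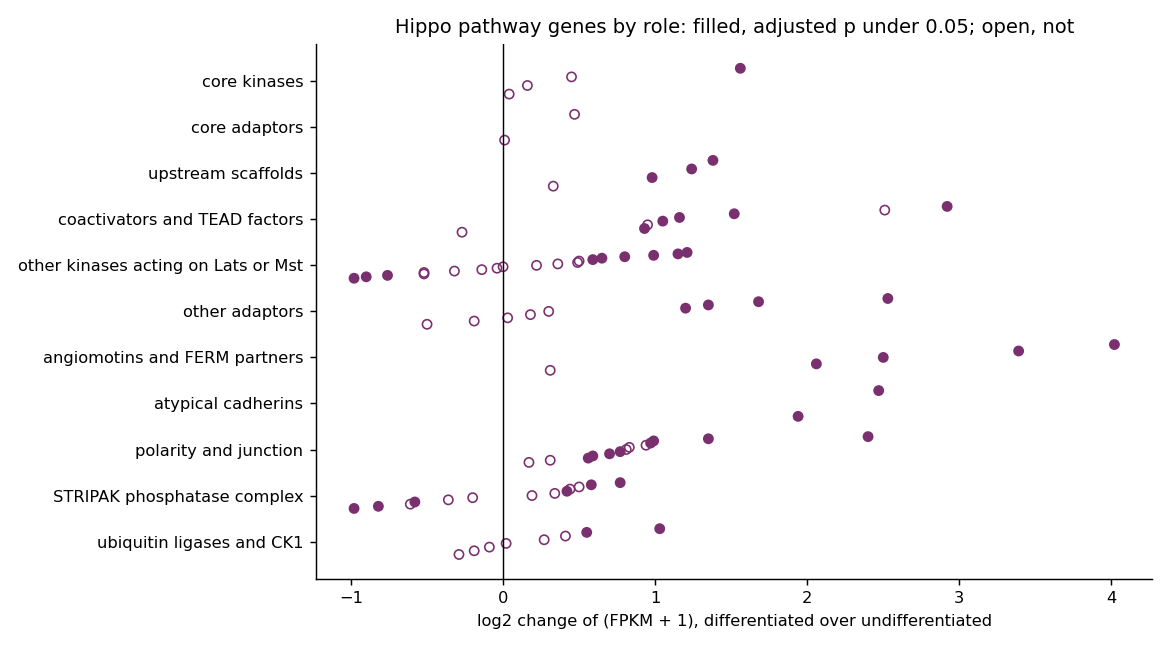
Log2 change of FPKM + 1 in differentiated over undifferentiated libraries (limma, knockdown as a term) for the genes of the pathway by role, 1 point a gene, filled where the adjusted p is under 0.05. Core kinases and adaptors lie between 0.01 and 0.47 except Lats2 at 1.56, while angiomotins and their partners reach 4.02.

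In the single comparison of dESC_Yap1_KD1 with dESC_control, 0 of 76 other pathway genes were at least 2-fold higher and 11 were at least 2-fold lower, as 4.77% of all genes were, with a median of -0.31 beside -0.01 for all genes. These 11 were Yap1, Wwtr1, Tead3, Vgll3, Vgll4, Amot, Amotl1, Amotl2, Frmd6, Ptpn14 and Llgl2. In both Yap1_KO1 and Yap1_KO2 over ESC, Ajuba (-1.85 and -2.17) and Amotl2 (-1.78 and -3.07) were at least 2-fold lower and the kinase Tnik (1.06 and 1.01) higher, and Yap1 was in Yap1_KO2 alone (-1.21). None of them passed limma for the pair, with 0 of 72 pathway genes called and 26 at an unadjusted p under 0.05, beside 0.173% and 23.1% of all genes. Ajuba and Amotl2 were also at least 2-fold lower in Control than in ESC (-1.07 and -1.12), neither of which is labelled for a change of Yap1. Control had less Yap1 RNA than ESC, though, at 37.4 FPKM against 65.4. In Yap1_KD1 over Control the only such genes were Yap1 itself and Amotl2 (-1.09), and in Yap1_OE over BirA they were Yap1, Vgll3, Amot, Amotl2 and Ptpn14, all higher.

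The genes with the profile most like Wwc2 over the 9 libraries, by the root mean square difference of centred log2(FPKM + 1) values among 8287 genes, were Bcam (0.337), Eno3 (0.383) and Mme (0.399), where the median gene was at 1.06. Bcam, a laminin-binding adhesion protein, had 26.2 and 19.6 FPKM in Yap1_KO1 and Yap1_KO2 against 82.4 in ESC, and 18.9 in Yap1_KD1 against 37.5 in Control. It had 37.8 FPKM in dESC_Yap1_KD1 against 190 in dESC_control and 95.7 in Yap1_OE against 59.1 in BirA. For Lats2 the nearest among 8288 genes were the kinase Mapkapk2 (0.183), Pawr (0.197) and Plekhg2 (0.204), with the median gene at 0.782. Mapkapk2 had 28 FPKM in dESC_Yap1_KD1 against 74.7 in dESC_control, and 11.3 in Yap1_KD1 against 12.6 in Control. For Limd1 the nearest were Tmem127 (0.101), Tcf12 (0.105) and Whsc1 (0.124), and for Wwc1 Ubtd2 (0.109), Mthfsd (0.118) and Ccm2 (0.155).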

How the data were processed

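Polyadenylated RNA of 9 libraries was described by 1 deposited table. Its values were taken as FPKM made by the authors, with TopHat2, Cuffdiff and build mm9 per the submitters' processing notes. The table names no unit, and for versions, annotation, read length and strandedness no statement was found in the labels. Cuffdiff may scale libraries against each other.

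Of 23277 rows, 4746 were blank and 27 had symbols turned into dates, which left 18504 genes. Small RNA rows (178) took 16.0% to 23.8% of the summed FPKM. Depth was estimated from the steps between low FPKM values, scaled by 257 genes with 1 long transcript (quartiles of 12.7 to 14.8 M fragments for BirA). Depths are approximate and were used in no test.

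Values on the log2(FPKM + 1) scale were fitted with limma 3.58.1 (R 4.3.3, trend option on) for genes that reached 1 FPKM in any library of the comparison, and p-values were adjusted over all of them. Lone libraries are assumed to vary like the others in a fit. The fit of differentiation and knockdown holds only lone libraries. Its error is the unequal response in the 2 states and not a spread of replicates. No label says that the knockout-labelled libraries are separate cultures, and the spread that p-values rest on may be technical. The scripts were tested on simulated data. In single-library comparisons genes at least 2-fold apart were counted. Ratios and percentages of FPKM are without a pseudocount.

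Named genes are all 10 members, the pathway genes past a test or 2-fold, Yap1 for the labels, and the 3 most alike genes of each member spanning at least 1 on the log2 scale. Likeness for Stk3 and Mob1b and pathway genes past the differentiation test are given by count or example. Members and lists were chosen with earlier results of these data known. Transcripts and GC content came from GENCODE M21 and start sites from RefSeq, both GRCm38, matched by symbol (94.9% of genes), and no coordinates of the table's own build are used. Lats2 shares 56.5% of its 50-base stretches with Gm49361, an overlapping gene in GENCODE M21. Its reads may have been split if the authors' annotation, which is not stated, also held that gene.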

Additional observations from a re-analysis of the deposited data

Results flagged for a closer look

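In 3 members the 2 states of the knockdown arm went opposite ways, with 1 library a group, so the difference was not tested. Stk3 had log2 ratios of differentiated over undifferentiated cells of 0.20 under knockdown and -0.12 in controls, and Sav1 had -0.09 under knockdown and 0.11 in controls. Limd1 had log2 ratios of knockdown over control of -0.05 in differentiated cells and 0.07 in undifferentiated cells. The 3 undifferentiated controls differed by 1.18-fold for Stk3, 1.26-fold for Sav1 and 1.23-fold for Limd1.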

How the results depend on the processing

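Over the alternatives run, 371 of 392 single-gene values and 167 of 206 counts kept their direction and their side of the threshold or stayed within 1.5 times. The cause was not tested for any that did not, other than the number of genes that a filter leaves.

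At a pseudocount of 0.1 the genes at least 2-fold apart numbered 917 in Yap1_OE over BirA, 601 and 543 in Yap1_KO1 and Yap1_KO2 over ESC, 241 in Yap1_KD1 over Control, 1225 in dESC_Yap1_KD1 over dESC_control, 473 in BirA over ESC and 1183 in Control over ESC, and 3 members were 2-fold apart in dESC_Yap1_KD1 over Yap1_KD1, where the main count was 1. With a pseudocount of 5 the genes numbered 168, 98 and 98 in the first 3, 324 in dESC_Yap1_KD1 over dESC_control, 1237 in dESC_control over Control, 959 in dESC_Yap1_KD1 over Yap1_KD1, 87 in BirA over ESC and 209 in Control over ESC. Members 2-fold apart were then 0 in Yap1_KD1 over Control (Wwc2 at -0.71), 1 in dESC_Yap1_KD1 over dESC_control (Lats2 at -0.94) and 0 in dESC_Yap1_KD1 over Yap1_KD1. Without small RNA rows 52 genes were apart in Yap1_KD1 over Control.

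For the knockout-labelled pair against ESC limma called 2 genes higher and 18 lower. It called 1 higher at pseudocount 5, 0 and 0 with the filter dropped (2910 genes at an unadjusted p under 0.05), 10 and 38 without small RNA rows, 6 and 31 with the GC trend removed, and 0 and 1 with 3 controls (2660 at that unadjusted p). For the fit of both arms, 0 higher and 2 lower, the lower count was 1 at pseudocount 0.1, with the filter dropped or at 5 FPKM, and with the differentiated pair added, and 1 gene was higher without small RNA rows. Leaving out a knockout-labelled library gave 1 to 6 higher and 3 to 9 lower, with 0 members called by limma either way. The knockdown term called 0 and 0 without small RNA rows (992 at that unadjusted p). Lats2 did not pass the differentiation fit after rescaling, at a pseudocount of 5, or with the filter at 5 FPKM or dropped.

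Some signs turned, none of them of a value past its test. With the GC trend removed these were, for the knockout-labelled pair, Stk3 (-0.04, main 0.36), Lats2 (0.04, main -0.04) and Sav1 (-0.12, main 0.24), for both arms Sav1 (-0.11) and Nf2 (0.0055), and for the knockdown term Limd1 (-0.0059). Lats2 was at 0.14 without Yap1_KO replicate 2 and Nf2 at 0.23 with 3 controls (main -0.26). In both arms Nf2 was at -0.03 to 0.02 when a knockout-labelled library was left out, and with the differentiated pair added Sav1 was at -0.08 and Nf2 at 0.10. After rescaling Sav1 was at -0.02 in differentiation and Limd1 at -0.0031 in the knockdown term. No paired analysis was possible because the groups compared share fewer than 2 replicate numbers. Counting error limits Lats2 most, at about 34 fragments in Yap1_KD1.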
